A study of Mus musculus with 16 samples.

Results

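The genes described here encode the enzymes that build cholesterol and fatty acids, together with the regulators that set their transcription. A fixed list of 33 genes was matched to probe sets that the platform annotation maps to exactly 1 symbol, and the probe set with the highest mean was taken for each gene. The sterol arm has 21 listed genes, of which 20 were measured. All 12 genes of the fatty acid arm were measured. The sterol gene not measured is Acat2, the cytosolic acetoacetyl-CoA thiolase, whose expression is not analysed here. All 32 measured members passed the filter on low values and are among the 10236 genes tested in the whole series. The list goes by function, and of the measured values only the mean level of a gene's probe sets entered the rule.

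The cells were cultures of C57BL/6 mouse bone marrow grown in 10 ng/mL of GM-CSF, a growth factor for myeloid cells. The 4 groups, of 4 arrays each, were LPS-treated cells at 450 mOsm, LPS-treated cells at 290 mOsm, untreated cells at 450 mOsm and untreated cells at 290 mOsm. The 450 mOsm/L medium got its extra osmolarity from NaCl added from day 3, while the 290 mOsm/L medium was the normosmolar one. Cells were taken on day 7 and plated for 6 h more, with or without LPS at 10 ng/mL. LPS is a bacterial cell wall component that myeloid cells sense through the receptor Tlr4. Every group shares the strain, the cytokine and the final plating. The same 4 mice gave cells to each group, so the replicates are 4 animals. Such cultures are mixtures: the label is dendritic cell, but no sort is described.

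Animal cells make cholesterol from acetyl-CoA through mevalonate, farnesyl diphosphate, squalene and lanosterol, and make fatty acids from acetyl-CoA through malonyl-CoA. Transcription of both arms is driven by the SREBP proteins, encoded by Srebf2, which acts mainly on sterol genes, and Srebf1, which acts mainly on fatty acid genes. SREBP proteins stay in the endoplasmic reticulum, held there by Insig proteins, while sterols are plentiful, and are released to the nucleus when sterols run short. Srebf1 and several desaturase genes also respond to the oxysterol receptor LXR. In myeloid cells both arms are known to change with activation through Toll-like receptors.

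Values are log2 probe set levels as deposited, and a change is the log2 difference between group means with limma's standard error. A gene was called when its Benjamini-Hochberg adjusted p over all 10236 genes was under 0.05. A log2 level under 6.83, the median of all values, is close to the background of the array and its folds are compressed. Among the members, the means of Lpin1 and Elovl6 in both LPS groups and of Tm7sf2 at 290 mOsm with LPS lay under that level. Array medians lay between 6.78 and 6.93. Per-array values are given in the order of mice 1 to 4.

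Markers of other cells moved with salt in the same arrays. The summed linear intensity of 15 neutrophil markers was 15689 to 16596 at 450 mOsm with LPS, against 37805 to 46496 at 290 mOsm with LPS. Without LPS it was 5693 to 6428 at 450 mOsm, against 27113 to 35551 at 290 mOsm. Of these 15 genes, 0 were called higher and 13 lower with salt in LPS-treated cells, and 0 higher and 15 lower in cells without LPS. Of 12 macrophage markers tested, 8 were lower and 0 higher with salt in LPS-treated cells, and 7 lower and 1 higher in cells without LPS. The summed level of 5 monocyte markers was 1374 to 1715 at 450 mOsm with LPS, against 4551 to 6257 at 290 mOsm with LPS. Without LPS it was 2782 to 4554 at 450 mOsm, against 4626 to 4844 at 290 mOsm. Of these 5 genes, 3 were called lower and 1 higher with salt in LPS-treated cells, with a median change of -0.94. In cells without LPS 2 were lower and 1 higher, with a median change of 0.25. The summed level and the median change thus had opposite directions without LPS. For 10 mast cell and basophil markers the summed level was 1601 to 1871 at 450 mOsm with LPS, against 2408 to 4062 at 290 mOsm with LPS. Without LPS it was 666 to 731 at 450 mOsm, against 1178 to 1942 at 290 mOsm. Of 6 of these tested, 3 were lower and 1 higher with salt in LPS-treated cells, and 6 lower and 0 higher in cells without LPS. Dendritic cell markers were present in all 4 groups: the summed level of 14 of them ran from 42110 to 43924 at 450 mOsm with LPS, 40149 to 42160 at 290 mOsm with LPS, 40550 to 42738 at 450 mOsm and 39866 to 41386 at 290 mOsm. The mean lay under 6.83 for 5 of the 14 at 450 mOsm with LPS and for 4 at 290 mOsm with LPS. Without LPS it did so for 3 at 450 mOsm and 5 at 290 mOsm. Changes of single markers with salt in LPS-treated cells ran from -1.02 to 1.01, a spread that the sums do not show. Of 12 such markers tested, 2 were called higher and 3 lower with salt in LPS-treated cells, and 2 higher and 1 lower without LPS. Over all tested genes, 16.8% were called higher and 21.8% lower with salt in LPS-treated cells, and 20.6% and 23.7% in cells without LPS. The dendritic cell counts with LPS are near those shares. Adipocyte genes were dim: the mean lay under 6.83 for 4 of 5 measured at 450 mOsm with LPS and for 5 of 5 in each of the other groups. The part of these other cells in the changes below was not tested, and fewer cells of a type cannot be told apart from less RNA per cell.

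Promoter windows of RefSeq, build GRCm38.p6, running from 250 bases before to 50 after each transcription start, were found for 25 of the 32 measured members. They were searched on both strands for the sterol regulatory element TCACNCCAC, its looser core CACNCCAC, which lies inside it, the NF-Y box CCAAT, the Sp1 box GGGCGG and the E-box CACGTG. NF-Y binds beside SREBP proteins at many sterol genes. A CCAAT box was present in 16 of 16 measured sterol genes with a window (100%) and 5 of 9 fatty acid genes (55.6%), against 41.8% of the tested genes that have a window. Sp1 boxes were present in 15 of 16 sterol genes and 4 of 9 fatty acid genes, against 69% of tested genes. The full element was found in 1 of 16 sterol genes and 0 of 9 fatty acid genes, against 1.33% of tested genes, and the core in 2 of 16 and 0 of 9, against 7.53%. E-boxes were in 4 of 16 sterol genes and 1 of 9 fatty acid genes, against 12.1%. These letters describe the windows only, and genes with several start sites have several windows.

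The windows of 5 genes are shown, chosen because their levels recur in the results: Hmgcs1 and Insig1, which hold the element or its core, Sc5d, the sterol gene with the largest dependence of the salt change on LPS, Idi1, the sterol gene with the largest rise with LPS, and Lpin1, the member with the largest fall with LPS, in whose window 0 of the 5 motifs were found. Capitals mark matches to the element, its core and the NF-Y box, in either orientation. The windows lie at chr13:119690101-119690400 on the plus strand for Hmgcs1, chr5:28071162-28071461 on the plus strand for Insig1, chr9:42264251-42264550 on the minus strand for Sc5d, chr13:8885356-8885655 on the plus strand for Idi1 and chr12:16610917-16611216 on the minus strand for Lpin1, each read in the direction of the gene.
Hmgcs1: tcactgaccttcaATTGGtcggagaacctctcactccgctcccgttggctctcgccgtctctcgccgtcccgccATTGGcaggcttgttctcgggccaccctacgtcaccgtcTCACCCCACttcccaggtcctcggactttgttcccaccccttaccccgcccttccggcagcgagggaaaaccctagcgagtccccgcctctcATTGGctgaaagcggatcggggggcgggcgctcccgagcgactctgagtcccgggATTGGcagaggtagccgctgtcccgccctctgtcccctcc
Insig1: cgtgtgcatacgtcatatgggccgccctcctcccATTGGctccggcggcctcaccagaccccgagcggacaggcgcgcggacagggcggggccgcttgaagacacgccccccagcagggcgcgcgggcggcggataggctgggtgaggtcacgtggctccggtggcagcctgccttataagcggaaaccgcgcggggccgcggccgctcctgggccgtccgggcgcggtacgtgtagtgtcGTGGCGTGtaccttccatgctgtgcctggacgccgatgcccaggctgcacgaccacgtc
Sc5d: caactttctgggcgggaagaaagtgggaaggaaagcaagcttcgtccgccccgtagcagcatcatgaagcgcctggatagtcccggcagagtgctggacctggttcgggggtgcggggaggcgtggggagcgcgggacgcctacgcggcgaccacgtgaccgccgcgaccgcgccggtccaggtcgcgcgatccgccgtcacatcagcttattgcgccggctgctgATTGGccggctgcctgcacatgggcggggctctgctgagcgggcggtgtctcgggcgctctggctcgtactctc
Idi1: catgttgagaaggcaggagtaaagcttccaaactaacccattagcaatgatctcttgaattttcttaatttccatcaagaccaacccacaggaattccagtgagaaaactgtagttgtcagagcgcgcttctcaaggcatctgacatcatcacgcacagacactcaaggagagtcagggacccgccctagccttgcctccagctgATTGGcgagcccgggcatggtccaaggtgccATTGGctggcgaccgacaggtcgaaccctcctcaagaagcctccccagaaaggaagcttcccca
Lpin1: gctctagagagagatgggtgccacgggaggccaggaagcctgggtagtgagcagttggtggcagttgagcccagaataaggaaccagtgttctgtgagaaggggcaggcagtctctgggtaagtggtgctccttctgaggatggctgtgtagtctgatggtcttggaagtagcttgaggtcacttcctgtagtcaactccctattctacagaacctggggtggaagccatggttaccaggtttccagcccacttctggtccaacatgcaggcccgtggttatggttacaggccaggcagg

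Salt in LPS-treated cells lowered much of the sterol arm and left the fatty acid arm mixed. Of 20 sterol genes, 12 were lower at 450 mOsm with LPS than at 290 mOsm with LPS and 0 were higher, whereas 21.8% of all tested genes were called lower and 16.8% higher. The median change over the sterol genes was -0.34, against 0.0015 over all genes. In the 4 mice that median was -0.28, -0.23, -0.40 and -0.50, so each mouse had it below 0. Of 12 fatty acid genes, 3 were higher and 3 lower, with a median of 0.06. The 3 lower calls of the fatty acid arm, for Acaca, Fasn and Fads1, depended on single animals: leaving out any 1 mouse left 1 of the 3.

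Salt in cells without LPS gave another picture, in which the fatty acid arm held most of the calls among the members. Of 12 fatty acid genes, 8 were higher at 450 mOsm than at 290 mOsm and 1 was lower, against 20.6% and 23.7% of all genes. Their median change was 0.33, with 0.42, 0.43, 0.25 and 0.22 in the 4 mice. Of 20 sterol genes, 5 were higher, a share close to the 20.6% of all genes, and 1 was lower, a smaller share than the 23.7% of all genes, with a median of 0.10. Sterol medians differed among the animals: 0.18 and 0.21 in mice 1 and 2, but 0.05 and -0.03 in mice 3 and 4. Without mouse 1 or without mouse 2, 1 sterol gene was called higher, Mvd. Without mouse 2, 5 fatty acid genes were, and median centring of the arrays left 3 sterol genes.

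The difference between these salt changes was tested as the interaction, the change with LPS minus the change without it. It was below 0 for all 20 sterol genes and was called for 11 of them, whereas 10.4% of all genes were called with a negative interaction and 10.7% with a positive one. The median over the sterol arm was -0.48, with -0.56, -0.35, -0.44 and -0.49 in the 4 mice, below 0 in each. In the fatty acid arm 4 of 12 genes were called negative and 0 positive, with a median of -0.11. Among those called, Elovl6 had means under 6.83 in both LPS groups, where changes are compressed. Without mouse 1, and likewise without mouse 4, 2 fatty acid genes were called. In all, 5 members, Lss, Nsdhl and Sc5d of the sterol arm and Acaca and Fasn of the fatty acid arm, were called higher with salt in cells without LPS and lower with salt in LPS-treated cells. That is 3 of 20 and 2 of 12, against 1.5% of all genes. The count depended on single animals: both calls held for Acaca alone without mouse 1, for none of the 5 without mouse 2, for Fasn alone without mouse 3 and for 4 without mouse 4, and for 3 under median centring.

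**Figure D1:**
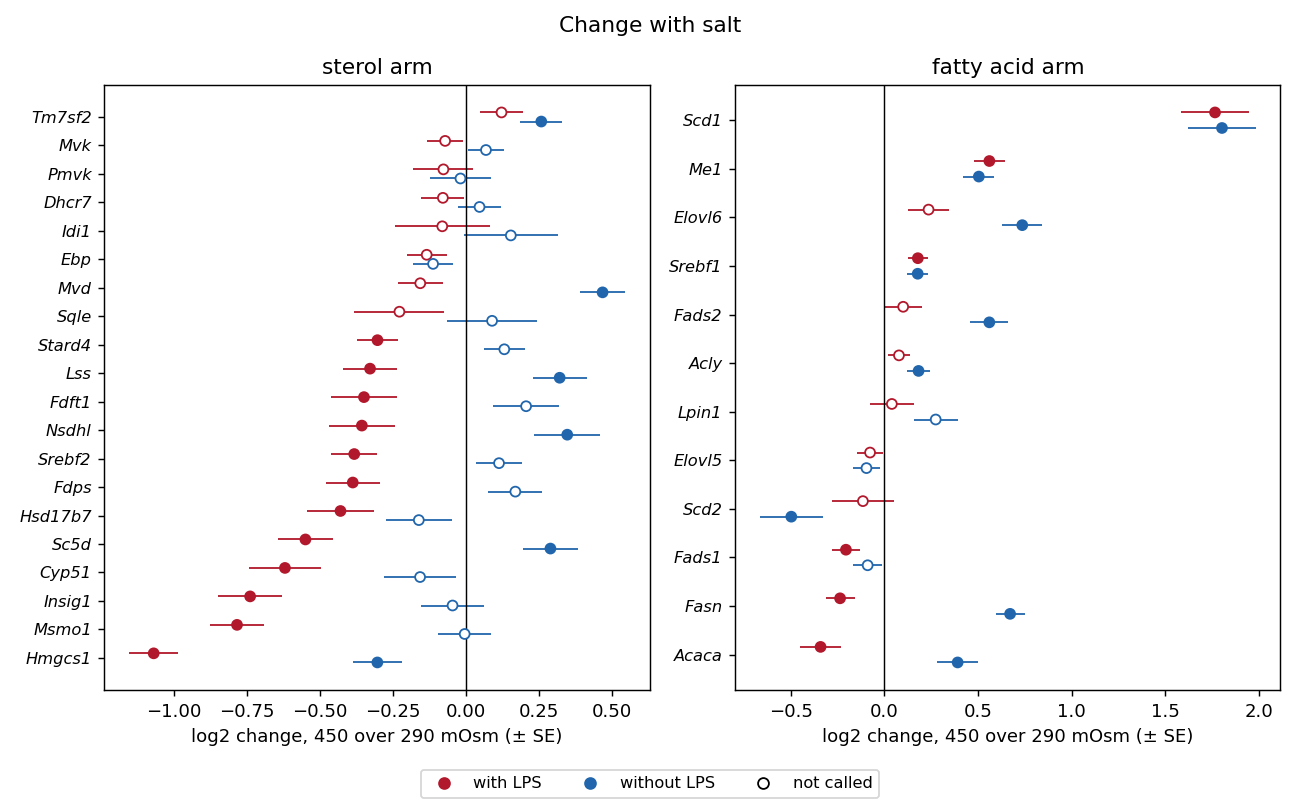
Log2 change at 450 mOsm over 290 mOsm (horizontal axis, limma estimate ± SE, 4 mice per group) for the 20 sterol genes and 12 fatty acid genes, in cells with and without LPS, with open symbols where the change was not called. The sterol changes with LPS lie to the left of those without LPS for all 20 genes, and Scd1 lies far to the right of the other fatty acid genes in both.

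LPS lowered most sterol genes at 450 mOsm, whereas at 290 mOsm the sterol counts and median were near those of all genes. The interaction above is also the test, gene by gene, of the difference between the media. At 450 mOsm 17 of 20 sterol genes were lower with LPS than without and 2 were higher, against 45.3% and 26.4% of all genes, and the median change was -0.64. At 290 mOsm 10 of 20 were lower and 5 higher, against 47.1% and 26.4% of all genes, with a median of -0.10, which became 0.05 under cyclic loess. The fatty acid arm was lower with LPS in both media: 11 of 12 genes at 450 mOsm, with a median of -1.36, and 10 of 12 at 290 mOsm, with a median of -0.90. The median over all genes was -0.09 for LPS at 450 mOsm and -0.11 at 290 mOsm, and cyclic loess moved these to 0.03 and 0.02. Lower sterol calls for LPS at 290 mOsm numbered 5 under cyclic loess, 6 under quantile normalization and 6 without mouse 2.

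**Figure D2:**
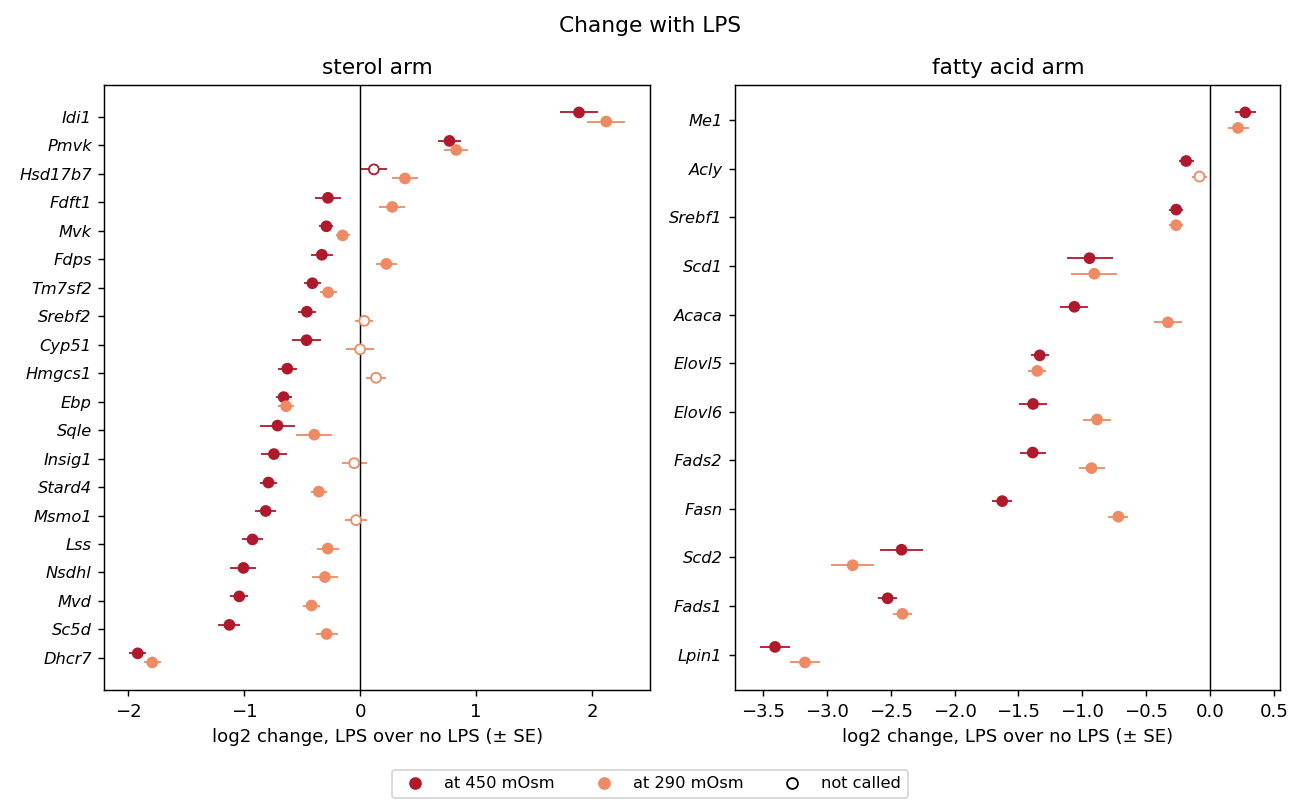
Log2 change with LPS over no LPS (horizontal axis, limma estimate ± SE, 4 mice per group) for each member at 450 mOsm and at 290 mOsm, with open symbols where the change was not called. Idi1 and Pmvk rose with LPS in both media, Dhcr7 fell in both, and for most other sterol genes the 450 mOsm symbol lies to the left of the 290 mOsm symbol.

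**Figure D3:**
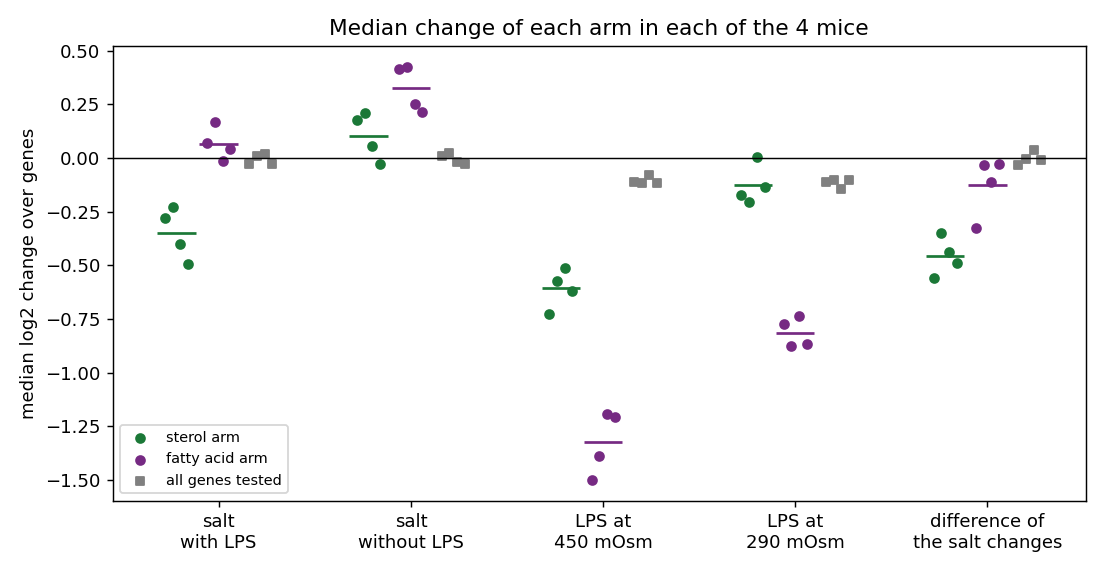
Median log2 change over the genes of each arm, and over all genes tested (vertical axis), in each of the 4 mice, for the 4 contrasts and for the difference of the salt changes, with a line at the mean over mice. The sterol medians lie between -0.50 and -0.23 for salt with LPS and between -0.03 and 0.21 for salt without LPS, and the fatty acid medians lie below the sterol ones for LPS in both media.

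The order of the 4 groups is read from the same group means as the changes above, so it is not separate support for them. The mean at 450 mOsm with LPS was the lowest of the 4 groups for 16 of 20 sterol genes (80%) and 5 of 12 fatty acid genes (41.7%), against 31.4% of all tested genes. Per array, the median sterol level relative to the mean at 290 mOsm without LPS was -0.53, -0.46, -0.59 and -0.79 at 450 mOsm with LPS, against -0.16, -0.08, -0.07 and -0.13 at 290 mOsm with LPS. It was 0.21, 0.25, -0.07 and -0.003 at 450 mOsm without LPS. The median fatty acid level, relative to the same group, was -0.71, -0.72, -0.83 and -0.75 at 450 mOsm with LPS. At 290 mOsm with LPS the fatty acid median was -0.79, -0.86, -0.89 and -0.85, so that arm was low in both LPS groups. All 4 arrays at 450 mOsm with LPS lay below the other 12 arrays for 10 sterol genes (50%), namely Hmgcs1, Mvd, Lss, Msmo1, Nsdhl, Ebp, Sc5d, Srebf2, Insig1 and Stard4. Among fatty acid genes that held for Fasn, 1 of 12, and among all tested genes for 11%. The highest mean fell in the 450 mOsm group without LPS for 10 of 20 sterol genes and 8 of 12 fatty acid genes. Among all 10236 tested genes that held for 2925.

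The first enzymes of the sterol arm make mevalonate and turn it into farnesyl diphosphate. Hmgcs1, the HMG-CoA synthase, had log2 levels of 8.83, 8.98, 8.94 and 8.71 at 450 mOsm with LPS, against 9.98, 10.00, 9.95 and 9.80 at 290 mOsm with LPS. Without LPS its levels were 9.60, 9.52, 9.47 and 9.38 at 450 mOsm and 9.96, 9.95, 9.58 and 9.69 at 290 mOsm. The LPS groups did not overlap, while the groups without LPS overlapped at their edges. Salt lowered Hmgcs1 2.10-fold with LPS (-1.07 ± 0.08, adjusted p = 2.19e-08), the largest salt-related fall of any member in those cells. Without LPS it fell 1.23-fold (-0.30 ± 0.08, adjusted p = 0.0077, and 0.0574 without mouse 2), which made it the 1 sterol gene called lower there. The interaction was -0.77 ± 0.12 (adjusted p = 0.000133).

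The next steps did not all follow Hmgcs1. Mvd, the mevalonate diphosphate decarboxylase, had levels of 8.02, 8.12, 8.04 and 7.99 at 450 mOsm with LPS, against 8.17, 8.26, 8.17 and 8.19 at 290 mOsm with LPS, close but not overlapping. Without LPS it had 9.15, 9.34, 8.86 and 8.99 at 450 mOsm and 8.72, 8.54, 8.58 and 8.64 at 290 mOsm. The groups without LPS did not overlap and 450 mOsm was the higher. Its salt change was 0.47 ± 0.08 without LPS (adjusted p = 0.000106), the largest sterol rise there. With LPS it was -0.16 ± 0.08 (adjusted p = 0.119, not called, but 0.0234 in a fit of only the groups compared). The Mvd interaction was -0.62 ± 0.11. LPS lowered Mvd, with log2 changes of -1.04 ± 0.08 at 450 mOsm and -0.42 ± 0.08 at 290 mOsm. Fdps, the farnesyl diphosphate synthase, moved in opposite directions with LPS in the media: -0.33 ± 0.09 at 450 mOsm and 0.23 ± 0.09 at 290 mOsm, both called. The rise at 290 mOsm was lost without mouse 1 (adjusted p = 0.0831), without mouse 3 (0.0708) and without mouse 4 (0.0518), and the fall at 450 mOsm under cyclic loess (0.0906). Its salt change was -0.39 ± 0.09 with LPS, which was called, and 0.17 ± 0.09 without LPS, which was not called (adjusted p = 0.144, and 0.0444 with the mouse as a block). The Fdps interaction was -0.56 ± 0.13 (adjusted p = 0.00466).

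The kinases and the isomerase of this stretch went their own ways. Idi1, the isopentenyl diphosphate isomerase, had levels of 10.24, 10.37, 10.29 and 10.30 at 450 mOsm with LPS, against 10.68, 10.41, 10.35 and 10.07 at 290 mOsm with LPS. In the absence of LPS they were 8.71, 8.73, 8.34 and 7.87 at 450 mOsm and 8.49, 8.45, 7.98 and 8.10 at 290 mOsm. All 8 LPS-treated arrays lay more than 1 log2 unit above the other 8, and the 450 and 290 mOsm arrays overlapped. LPS raised Idi1 3.70-fold at 450 mOsm (1.89 ± 0.16) and 4.36-fold at 290 mOsm (2.12 ± 0.16), the largest LPS rise among the members. Its salt changes, -0.08 ± 0.16 with LPS and 0.15 ± 0.16 without, were not called. Pmvk, the phosphomevalonate kinase, also rose with LPS, by 0.77 ± 0.10 at 450 mOsm and 0.83 ± 0.10 at 290 mOsm, with salt changes of -0.08 ± 0.10 and -0.02 ± 0.10 with and without LPS that were not called. Mvk, the mevalonate kinase, was lower with LPS by small amounts, -0.29 ± 0.06 at 450 mOsm and -0.15 ± 0.06 at 290 mOsm. The Mvk call at 290 mOsm ended under cyclic loess, where the change was -0.003 (adjusted p = 0.971), and without mice 2, 3 or 4 (adjusted p = 0.0637 to 0.108).

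**Figure D4:**
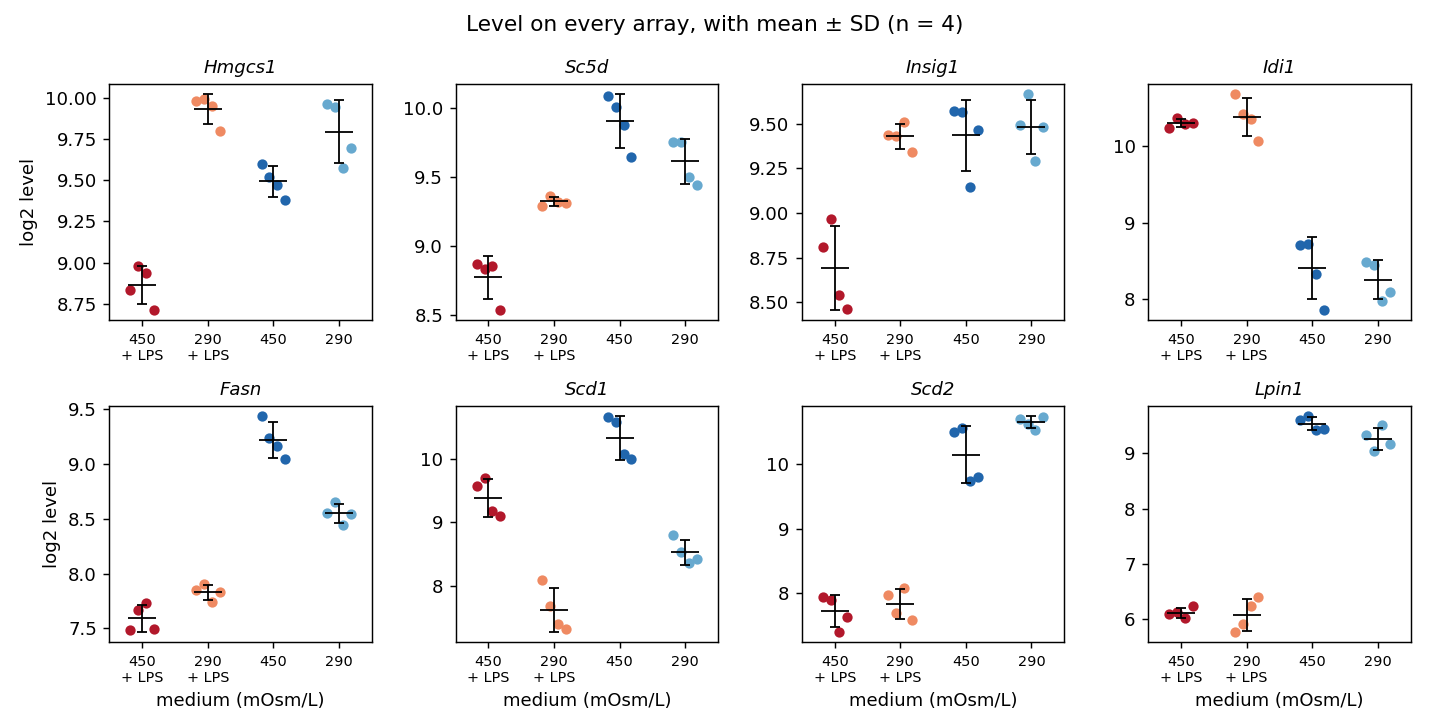
Log2 level (vertical axes, a different range in each panel) of 8 members on every array at 450 and 290 mOsm with and without LPS, with bars for the group mean ± SD (n = 4). Hmgcs1, Sc5d and Insig1 have 4 low arrays at 450 mOsm with LPS, Idi1 is high in both LPS groups, Scd1 is higher at 450 mOsm in both pairs, and Lpin1 and Scd2 are low in both LPS groups.

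From squalene to cholesterol, 7 of 11 genes were lower with salt in LPS-treated cells and 0 were higher, against 21.8% and 16.8% of all genes. Sc5d, the desaturase that acts late in the path, had levels of 8.87, 8.83, 8.86 and 8.54 at 450 mOsm with LPS, against 9.30, 9.37, 9.32 and 9.32 at 290 mOsm with LPS. Without LPS they were 10.09, 10.01, 9.88 and 9.64 at 450 mOsm and 9.75, 9.76, 9.50 and 9.45 at 290 mOsm. The LPS groups did not overlap and the groups without LPS overlapped, with 450 mOsm the higher on average. Sc5d fell 1.46-fold with salt in LPS-treated cells (-0.55 ± 0.10, adjusted p = 0.000186) and rose 1.22-fold without LPS (0.29 ± 0.10, adjusted p = 0.0202), so its interaction was -0.84 ± 0.13 (adjusted p = 0.000189). The rise without LPS was lost without mouse 1, 2 or 3 (adjusted p = 0.0602 to 0.0951) and under median centring (0.0783).

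Msmo1, the methylsterol monooxygenase, had levels of 9.42, 9.45, 9.29 and 9.05 at 450 mOsm with LPS, against 10.08, 10.12, 10.13 and 10.01 at 290 mOsm with LPS. Without LPS it had 10.25, 10.29, 10.02 and 9.92 at 450 mOsm and 10.18, 10.25, 10.02 and 10.03 at 290 mOsm. The first group stood below the other 12 arrays, which overlapped each other. Salt lowered Msmo1 1.72-fold with LPS (-0.78 ± 0.09, adjusted p = 2.4e-06) and the interaction was -0.78 ± 0.13 (adjusted p = 0.000248). Lss, the lanosterol synthase, changed with salt by -0.33 ± 0.09 with LPS and 0.32 ± 0.09 without. Nsdhl, a dehydrogenase that removes sterol carbons together with Msmo1, changed by -0.36 ± 0.11 with LPS and 0.35 ± 0.11 without. All 4 of these changes were called, and the interactions of Lss (-0.65 ± 0.13) and Nsdhl (-0.70 ± 0.16) were too. Without mouse 3 the falls with LPS were lost (adjusted p = 0.0574 for Lss and 0.0827 for Nsdhl). Without mouse 1 or mouse 2 the rises without LPS were lost (adjusted p = 0.0711 to 0.125). That of Nsdhl was also lost under median centring (0.0602) and in a fit of only the groups compared (0.0512).

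Cyp51, the lanosterol demethylase, fell with salt in LPS-treated cells (-0.62 ± 0.12, adjusted p = 0.000684). Its change without LPS was -0.16 ± 0.12 (not called) and its interaction -0.46 ± 0.17 was not called either (adjusted p = 0.0704), though it was with the mouse as a block (adjusted p = 0.00768) and without the 450 mOsm array of mouse 4 (0.0142). Hsd17b7, a sterol ketoreductase, fell with salt in LPS-treated cells (-0.43 ± 0.11) and rose with LPS at 290 mOsm (0.39 ± 0.11). Fdft1, the squalene synthase, fell with salt in LPS-treated cells (-0.35 ± 0.11), fell with LPS at 450 mOsm (-0.28 ± 0.11) and rose with LPS at 290 mOsm (0.28 ± 0.11), with an interaction of -0.56 ± 0.16. Each of those 4 Fdft1 calls was lost without mouse 3, with adjusted p = 0.124, 0.1, 0.168 and 0.107 in that order. The salt call was also lost without mouse 4 (0.0646), and the rise with LPS and the interaction without mouse 1 (0.0604 and 0.0728). The fall with LPS at 450 mOsm was lost in 7 of 14 alternatives, among them cyclic loess (adjusted p = 0.247) and averaged probe sets (0.0969).

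The other 4 enzymes of this stretch were not called for salt in LPS-treated cells. Dhcr7, which makes the final reduction to cholesterol, had levels of 7.45, 7.48, 7.51 and 7.50 at 450 mOsm with LPS, against 7.74, 7.53, 7.52 and 7.47 at 290 mOsm with LPS. In the absence of LPS they were 9.54, 9.49, 9.20 and 9.39 at 450 mOsm and 9.46, 9.25, 9.29 and 9.42 at 290 mOsm. LPS lowered Dhcr7 3.78-fold at 450 mOsm (-1.92 ± 0.07) and 3.47-fold at 290 mOsm (-1.79 ± 0.07), the largest sterol fall in each medium, and the interaction was -0.13 ± 0.10 (adjusted p = 0.442, not called). Ebp, the sterol isomerase, fell with LPS, with log2 changes of -0.66 ± 0.07 at 450 mOsm and -0.64 ± 0.07 at 290 mOsm, and its salt changes were -0.13 ± 0.07 and -0.11 ± 0.07 with and without LPS (not called). Sqle, the squalene epoxidase, fell with LPS, with log2 changes of -0.71 ± 0.15 at 450 mOsm and -0.40 ± 0.15 at 290 mOsm. The second Sqle call was lost under cyclic loess and quantile normalization (adjusted p = 0.196 and 0.127) and without mouse 1 or 2 (0.0866 and 0.0596). Tm7sf2, a sterol reductase, rose with salt without LPS (0.26 ± 0.07). That call was lost without mouse 1 or mouse 2 (adjusted p = 0.0845 and 0.0727) and under cyclic loess (0.0509). The Tm7sf2 change with LPS present was 0.12 ± 0.07 (not called).

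The regulators and the carrier of the sterol arm all fell with salt in LPS-treated cells, and 0 of the 3 was called without LPS. Over all genes, 21.8% were called lower with salt in LPS-treated cells, and 20.6% higher and 23.7% lower without LPS. Insig1, the sterol-dependent retention protein and itself an SREBP target, had levels of 8.81, 8.97, 8.54 and 8.46 at 450 mOsm with LPS, against 9.44, 9.43, 9.51 and 9.34 at 290 mOsm with LPS. Without LPS they were 9.57, 9.57, 9.15 and 9.46 at 450 mOsm and 9.49, 9.67, 9.29 and 9.48 at 290 mOsm. The 4 arrays at 450 mOsm with LPS stood below all others. Insig1 fell 1.67-fold with salt and LPS (-0.74 ± 0.11, adjusted p = 3.7e-05), with an interaction of -0.69 ± 0.15 (adjusted p = 0.00317). Its LPS change was -0.74 ± 0.11 at 450 mOsm and -0.05 ± 0.11 at 290 mOsm (not called).

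Srebf2 had levels of 9.08, 9.21, 9.02 and 8.91 at 450 mOsm with LPS, against 9.31, 9.50, 9.46 and 9.47 at 290 mOsm with LPS. In the absence of LPS they were 9.63, 9.63, 9.31 and 9.48 at 450 mOsm and 9.31, 9.45, 9.32 and 9.51 at 290 mOsm. The first group lay below the rest, which overlapped. Srebf2 changed with salt by -0.38 ± 0.08 with LPS (adjusted p = 0.00086) and 0.11 ± 0.08 without LPS (not called), with an interaction of -0.50 ± 0.11 (adjusted p = 0.00322). Stard4, a cytosolic cholesterol carrier, changed with salt by -0.30 ± 0.07 with LPS and 0.13 ± 0.07 without LPS (not called), with an interaction of -0.43 ± 0.10 (adjusted p = 0.00378). Stard4 fell with LPS in both media, with log2 changes of -0.79 ± 0.07 at 450 mOsm and -0.36 ± 0.07 at 290 mOsm.

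**Figure D5:**
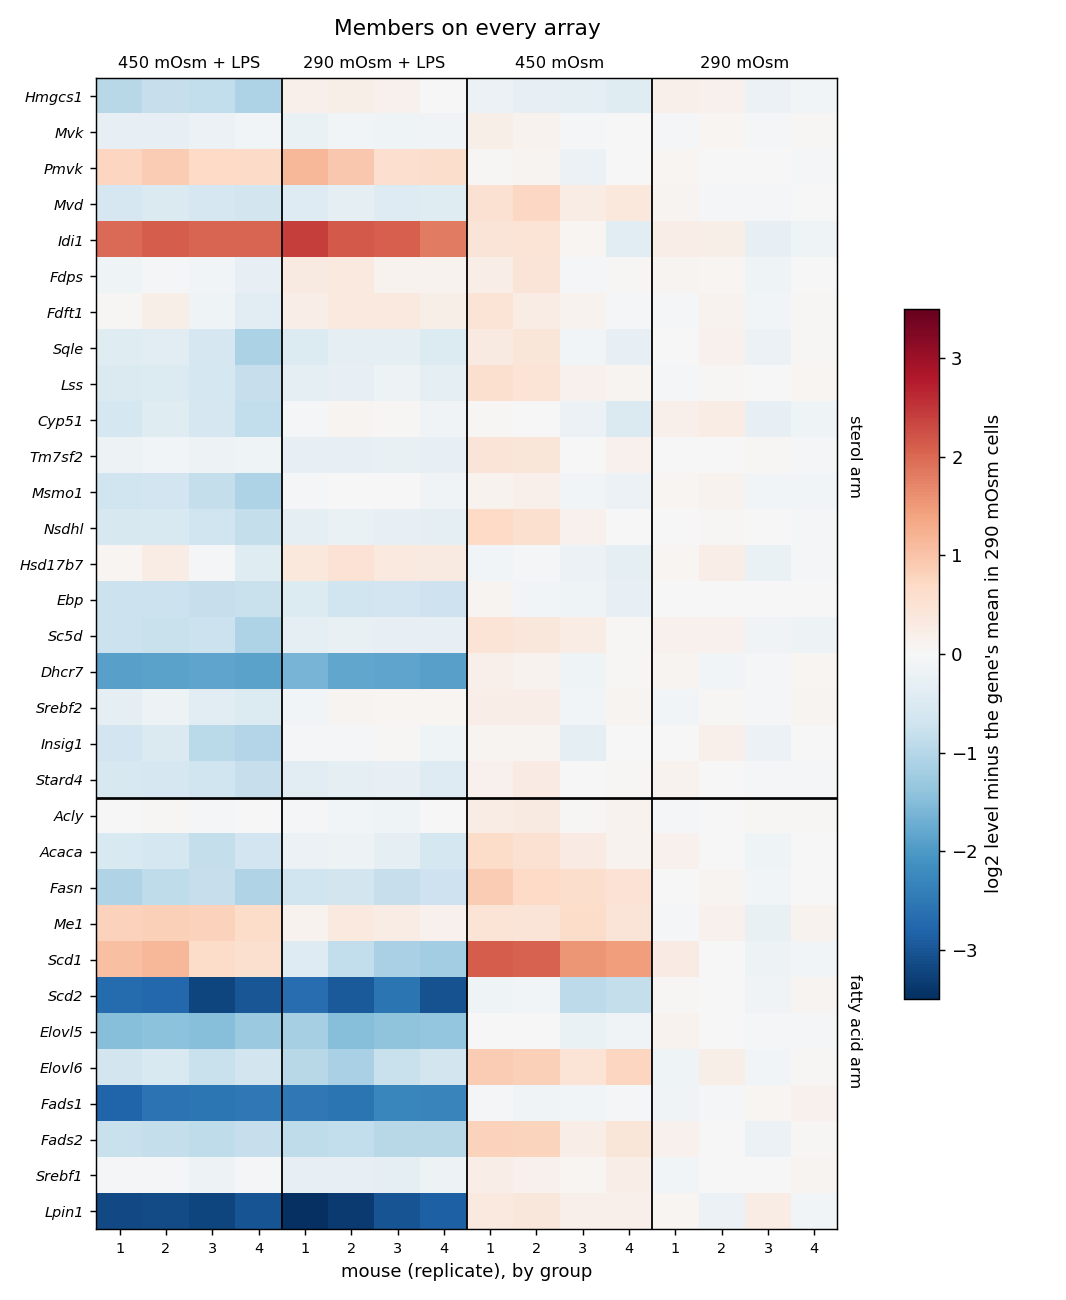
Heat map of the log2 level of each measured member (rows, by arm and role) on each of the 16 arrays (columns, by group), relative to the gene's mean at 290 mOsm without LPS (colour scale in log2 units). Most sterol rows are lowest in the 4 columns at 450 mOsm with LPS, whereas Lpin1, Scd2, Fads1 and Elovl5 are low in all 8 LPS-treated columns.

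In the fatty acid arm, the enzymes that supply precursors and build the chain all rose with salt in cells without LPS, 4 of 4. The share called higher over all genes was 20.6%. Fasn, the fatty acid synthase, had levels of 7.48, 7.67, 7.73 and 7.50 at 450 mOsm with LPS, against 7.85, 7.90, 7.74 and 7.83 at 290 mOsm with LPS. Without LPS it had 9.43, 9.24, 9.16 and 9.04 at 450 mOsm and 8.55, 8.66, 8.45 and 8.54 at 290 mOsm. The groups did not overlap in either pair, though those with LPS nearly met, and 450 mOsm was the lower with LPS and the higher without. Salt changed Fasn by -0.24 ± 0.08 with LPS (adjusted p = 0.0213) and 0.67 ± 0.08 without LPS (adjusted p = 2.22e-06), and the interaction of -0.91 ± 0.11 (adjusted p = 1.06e-05) was the largest of any member. The fall with LPS was lost without mouse 1, 2 or 4 (adjusted p = 0.0727 to 0.0898).

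Acaca, the acetyl-CoA carboxylase that makes malonyl-CoA, had the same signs, with groups that overlapped in both pairs. Its levels were 7.04, 6.97, 6.74 and 6.90 at 450 mOsm with LPS, against 7.37, 7.42, 7.25 and 6.97 at 290 mOsm with LPS, and 8.21, 8.11, 7.87 and 7.70 at 450 mOsm and 7.73, 7.58, 7.43 and 7.59 at 290 mOsm without LPS. Its salt change was -0.34 ± 0.11 with LPS and 0.39 ± 0.11 without, with an interaction of -0.73 ± 0.15 (adjusted p = 0.00207). The fall with LPS was lost without mouse 2 or 3 (adjusted p = 0.0957 and 0.113), and the rise without LPS was lost without mouse 2 (0.0632). Acly, the ATP citrate lyase that supplies acetyl-CoA, rose a little with salt without LPS (0.18 ± 0.06), a call lost without mouse 1 or 2 and under median centring (adjusted p = 0.185, 0.163 and 0.115). Me1, the malic enzyme that supplies NADPH, was higher with salt in both: 0.56 ± 0.08 with LPS and 0.50 ± 0.08 without. Me1 was the only fatty acid gene called higher with LPS, by 0.28 ± 0.08 at 450 mOsm and 0.22 ± 0.08 at 290 mOsm, and the second call was lost without mouse 1 or 3 (adjusted p = 0.0573 and 0.177).

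The desaturases and elongases shape the chain once it is made. Scd1, a stearoyl-CoA desaturase that makes monounsaturated fatty acids, had levels of 9.58, 9.70, 9.18 and 9.10 at 450 mOsm with LPS, against 8.09, 7.68, 7.40 and 7.33 at 290 mOsm with LPS. Without LPS it had 10.66, 10.59, 10.09 and 9.99 at 450 mOsm and 8.81, 8.53, 8.35 and 8.42 at 290 mOsm. Salt raised Scd1 3.40-fold with LPS (1.77 ± 0.18, adjusted p = 5.35e-07) and 3.49-fold without (1.80 ± 0.18, adjusted p = 4.08e-07), the largest salt rise of any member in each setting. The groups did not overlap in either pair, and in all 4 groups mice 1 and 2 were above mice 3 and 4. The Scd1 interaction was -0.04 ± 0.25 (adjusted p = 0.945, not called). LPS lowered it, with log2 changes of -0.94 ± 0.18 at 450 mOsm and -0.91 ± 0.18 at 290 mOsm.

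Scd2, a close relative in the same cluster of chromosome 19, did not share this. Its levels were 7.95, 7.90, 7.41 and 7.64 at 450 mOsm with LPS, against 7.97, 7.70, 8.08 and 7.59 at 290 mOsm with LPS. In the absence of LPS they were 10.49, 10.54, 9.73 and 9.79 at 450 mOsm and 10.69, 10.62, 10.52 and 10.72 at 290 mOsm. LPS lowered Scd2 5.33-fold at 450 mOsm (-2.41 ± 0.17) and 6.95-fold at 290 mOsm (-2.80 ± 0.17). Its salt change was -0.50 ± 0.17 without LPS (adjusted p = 0.0231), and mice 3 and 4 had the lower levels at 450 mOsm. The fall was not called without mouse 3 (0.0645), without mouse 4 (0.166) or without the 450 mOsm array of mouse 4 (0.086). With LPS the change was -0.11 ± 0.17 (not called). Similar transcripts of the Scd family can share probes, so the separate values of Scd1 and Scd2 are less certain than those of single-copy genes.

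Fads1 and Fads2, desaturases that make polyunsaturated fatty acids, lie next to each other on chromosome 19 with 0 coding genes between them. Fads2 rose with salt without LPS (0.56 ± 0.10, adjusted p = 0.000284), while with LPS its change was 0.10 ± 0.10 (not called). Fads1 changed by -0.21 ± 0.08 with LPS, a call lost without mouse 1, 3 or 4 and under 4 other settings, and by -0.09 ± 0.08 without (not called). Both fell with LPS, with log2 changes for Fads1 of -2.52 ± 0.08 at 450 mOsm and -2.41 ± 0.08 at 290 mOsm. For Fads2 they were -1.39 ± 0.10 at 450 mOsm and -0.93 ± 0.10 at 290 mOsm. Elovl6, which extends saturated chains, had levels of 7.93, 7.87, 7.50 and 7.80 at 450 mOsm and 6.88, 7.23, 6.95 and 7.09 at 290 mOsm without LPS, and rose there with salt (0.74 ± 0.11, adjusted p = 3.34e-05). With LPS it averaged 6.39 ± 0.10 at 450 mOsm and 6.15 ± 0.23 at 290 mOsm (SD, n = 4 each), both below 6.83, and its change there was 0.24 ± 0.11 (not called). The interactions of Fads2 (-0.46 ± 0.14) and Elovl6 (-0.50 ± 0.15) were called but were both lost without mouse 1 (adjusted p = 0.0877 and 0.124) or mouse 4 (0.0555 and 0.125), Fads2 also without mouse 2 (0.184) and Elovl6 also without mouse 3 (0.056). Elovl5, which extends polyunsaturated chains, fell with LPS, with log2 changes of -1.33 ± 0.07 at 450 mOsm and -1.35 ± 0.07 at 290 mOsm, with salt changes of -0.08 ± 0.07 and -0.10 ± 0.07 that were not called.

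Lpin1, the phosphatidate phosphatase of glycerolipid synthesis, had levels of 6.09, 6.14, 6.03 and 6.24 at 450 mOsm with LPS, against 5.78, 5.91, 6.24 and 6.40 at 290 mOsm with LPS. Without LPS it had 9.60, 9.66, 9.42 and 9.44 at 450 mOsm and 9.32, 9.04, 9.51 and 9.16 at 290 mOsm. LPS lowered Lpin1 10.6-fold at 450 mOsm (-3.40 ± 0.12) and 9.0-fold at 290 mOsm (-3.17 ± 0.12). These were the largest LPS changes among the members, measured against levels below 6.83, where folds are compressed. Salt changes of Lpin1 were 0.04 ± 0.12 with LPS and 0.27 ± 0.12 without, neither called. Srebf1, the regulator of the arm, changed little: salt raised it by 0.18 ± 0.05 with LPS and 0.18 ± 0.05 without, and LPS lowered it, with changes of -0.26 ± 0.05 at 450 mOsm and -0.27 ± 0.05 at 290 mOsm. Both salt calls of Srebf1 were lost without mouse 1 or mouse 2 (adjusted p = 0.0666 to 0.157), and both LPS calls under cyclic loess (0.0727 at 450 mOsm and 0.114 at 290 mOsm). The salt call without LPS was also lost under median centring (0.0839).

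Genes of the same pathways outside the list were read next. Of 17 further sterol and isoprenoid genes 8 were tested, and with salt in LPS-treated cells 1 was higher and 2 lower, near the 16.8% and 21.8% of all genes. Lbr, the lamin B receptor, which also reduces a sterol intermediate, fell 2.17-fold with salt and LPS (-1.12 ± 0.10, adjusted p = 8.46e-08), with -0.15 ± 0.10 without LPS (not called) and an interaction of -0.97 ± 0.14. Tmem97, a sterol-responsive membrane protein, fell with salt and LPS (-0.34 ± 0.06). Cyb5r3, a reductase that feeds electrons to desaturases, was the 1 that rose (0.24 ± 0.07). Npc1, which carries cholesterol out of lysosomes, was not called for salt but fell with LPS, with log2 changes of -0.91 ± 0.06 at 450 mOsm and -0.92 ± 0.06 at 290 mOsm.

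Of 9 genes tested for SREBP processing and degradation, 1 rose and 1 fell with salt in LPS-treated cells, where 16.8% and 21.8% of all genes did. Without LPS 2 rose and 1 fell, where 20.6% and 23.7% of all genes did, so these counts are near the background. Insig2, a relative of Insig1 with the same retention role, rose with salt by 0.52 ± 0.06 with LPS and 0.16 ± 0.06 without, with an interaction of 0.36 ± 0.08 (adjusted p = 0.00264), the opposite sign to that of Insig1. Scap, which escorts SREBP out of the endoplasmic reticulum, rose with salt without LPS (0.21 ± 0.06), fell with LPS, with log2 changes of -0.36 ± 0.06 at 450 mOsm and -0.29 ± 0.06 at 290 mOsm, and had a salt change of 0.14 ± 0.06 with LPS (not called). Erlin1, which takes part in the degradation of sterol regulators, was the gene that fell with salt and LPS (-0.22 ± 0.06).

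Among 22 other fatty acid and glycerolipid genes tested, 4 rose and 4 fell with salt in LPS-treated cells, and 5 rose and 5 fell without LPS. Both are near the shares of all genes, 16.8% higher and 21.8% lower with LPS and 20.6% and 23.7% without. Acss2, the cytosolic acetyl-CoA synthetase, rose by 0.38 ± 0.08 with LPS and 0.79 ± 0.08 without. Idh1, an NADPH source, had the mixed pattern of Fasn and Acaca: -0.30 ± 0.07 with LPS and 0.56 ± 0.07 without, with an interaction of -0.86 ± 0.10 (adjusted p = 5.53e-06). Dgat2, which makes triglycerides, moved the other way: 0.55 ± 0.14 with LPS and -0.70 ± 0.14 without, with an interaction of 1.25 ± 0.20 (adjusted p = 0.000202). LPS raised Dgat2 7.26-fold at 450 mOsm and 3.04-fold at 290 mOsm.

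Of 6 LXR receptors and targets, 1 rose and 2 fell with salt in LPS-treated cells, against 16.8% and 21.8% of all genes, and 2 rose and 3 fell without LPS, against 20.6% and 23.7%. Nr1h3, the LXR receptor of myeloid cells, fell with salt, with changes of -0.82 ± 0.07 with LPS and -0.30 ± 0.07 without. Abca1, the cholesterol exporter and an LXR target, changed by 0.07 ± 0.07 with LPS (not called) and -0.53 ± 0.07 without, with an interaction of 0.60 ± 0.10 (adjusted p = 0.00026). Of 4 lipid receptors and related factors tested, Pparg fell with LPS, with log2 changes of -1.70 ± 0.09 at 450 mOsm and -2.07 ± 0.09 at 290 mOsm, and with salt without LPS, where it was -0.45 ± 0.09.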

How the data were processed

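Total RNA of 16 samples was measured on microarrays. The values are the deposited log2 table, which the authors made with RMA in oligo, per the submitters' processing notes. RMA corrects background, equalises the arrays and summarises probes, so it sets values relative to the other arrays and compresses dim signals. Its version is not given in the sources used here, nor is a build. A probe set was kept when 4 or more arrays exceeded the median of all values, 6.83. Of 22549 probe sets 20646 have 1 symbol, and the one with the highest mean represents each of 10236 genes.

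Differences between the 4 group means were tested two-sided by limma (version 3.58.1, R 4.3.3), with 12 residual and 5.53 prior degrees of freedom. P-values were adjusted by Benjamini-Hochberg across all genes, and the threshold was 0.05. The model was checked on simulated data. The number of arrays limits the precision. Arrays of 1 replicate number come from 1 mouse, per the labels, which pairs the samples. Deviations from group means correlated across genes with a median r of 0.0953 over 24 pairs of arrays of a mouse, against -0.0351 over 72 pairs of different mice. Arrays of the same mouse at the same osmolarity may share a culture before plating. Alternatives were the mouse as a block, no filter or one at percentile 65, averaged probe sets, 3 other scalings, a trended robust variance, fits of only the groups compared, and leaving out each mouse or 1 array.

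The members, the lists and the motifs were chosen with earlier results of these data known, so counts over them are descriptions and were not tested. Genes outside the members were named by their rank: the 3 smallest adjusted p of a pathway list in each contrast, and the text names part of these. Sequences come from the RefSeq promoter table.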

Additional observations from a re-analysis of the deposited data

Results flagged for a closer look

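On 3 of 128 combinations of a member and a group, 1 array stood far from the other 3 for the range of the 4 values. Chance alone gives about 1 in 20. Sc5d was 8.54 on the array of mouse 4 at 450 mOsm with LPS, below the other 3. Me1 was 8.77 on the array of mouse 4 in the same group, below the other 3. Tm7sf2 was 6.7651 on the array of mouse 3 at 290 mOsm with LPS, above 6.7472, 6.7488 and 6.7468 on the other 3. That gap is small, stands out only because the other 3 nearly coincide, and lies under 6.83.

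The salt change with LPS differed from the salt change without LPS, by limma's interaction test, for 15 members, each with a negative log2 difference. In the sterol arm these were Hmgcs1 (-0.77), Mvd (-0.62), Fdps (-0.56), Fdft1 (-0.56), Lss (-0.65), Msmo1 (-0.78), Nsdhl (-0.70), Sc5d (-0.84), Srebf2 (-0.50), Insig1 (-0.69) and Stard4 (-0.43). In the fatty acid arm they were Acaca (-0.73), Fasn (-0.91), Elovl6 (-0.50) and Fads2 (-0.46). The Elovl6 means in both LPS groups lay under 6.83.

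Among the pathway genes outside the members, the interaction was negative for Lbr (-0.97), Erlin1 (-0.29), Acss2 (-0.41), Idh1 (-0.86), Lpin2 (-0.40), Acsl5 (-0.21) and Nr1h3 (-0.52). It was positive for Nus1 (0.34), Insig2 (0.36), Faf2 (0.26), Hacd2 (0.31), Acsl4 (0.39), Dgat2 (1.25), Fads3 (0.38), Abca1 (0.60), Pparg (0.37) and Ppard (0.33). These genes were named by their adjusted p, so their number says nothing of the lists they come from.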

How the results depend on the processing

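No result changed sign past the threshold under any alternative run. With the mouse as a replicate block 2 calls were gained, for Fdps with salt without LPS (0.17, adjusted p = 0.0444) and for the Cyp51 interaction (-0.46, adjusted p = 0.00768), and it changed no other call of the 32 members over the 5 contrasts.

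For salt without LPS, median centring left 3 sterol genes higher and 1335 genes higher in all, against 5 and 2104. Leaving out 1 mouse or array gave 1 to 6 sterol genes higher, 0 to 2 lower, 5 to 9 fatty acid genes higher, 0 to 1 lower, and 1346 to 1988 genes higher in all. For salt with LPS, fitting only the groups compared called Tm7sf2 higher (adjusted p = 0.0378) and Mvd lower (0.0234), neither of which the main fit called. Leaving out a mouse or array gave 1 to 3 lower fatty acid genes. For LPS at 290 mOsm the lower sterol genes numbered 5 under cyclic loess and 6 under quantile normalization, against 10. The sterol median was 0.0495 under cyclic loess, and the fatty acid median -0.75 under cyclic loess and -0.77 under quantile normalization. Leaving out a mouse or array gave 3 to 5 sterol genes higher, 6 to 10 lower and 0 to 1 fatty acid genes higher. For LPS at 450 mOsm the sterol median was -0.50 under cyclic loess. For the interaction the stricter filter, which tests fewer genes, left 2 lower fatty acid genes, and leaving out a mouse or array gave 2 to 4, with 658 to 1054 genes higher and 697 to 1126 lower in all. The cause was not tested for the others. Dim signals limit Lpin1, Elovl6 and Tm7sf2 in LPS-treated cells.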

Other observations

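Several pathway genes not described above also changed. Hacd2, a dehydratase of chain elongation, fell with salt, with log2 changes of -0.22 ± 0.07 with LPS and -0.53 ± 0.07 without. Acsl4, which activates polyunsaturated fatty acids, rose with salt in LPS-treated cells (0.41 ± 0.06) and had 0.02 ± 0.06 without LPS (not called). Elovl7, an elongase, fell with LPS, with -1.42 ± 0.09 at 450 mOsm and -1.22 ± 0.09 at 290 mOsm, to means below 6.83. Rnf139, a ubiquitin ligase of the endoplasmic reticulum, rose with LPS, with 0.57 ± 0.08 at 450 mOsm and 0.83 ± 0.08 at 290 mOsm. Acsl5, another activating enzyme, rose with LPS as well, with 0.59 ± 0.05 at 450 mOsm and 0.80 ± 0.05 at 290 mOsm. Rxra, the partner receptor of LXR and PPAR proteins, fell with LPS, with -0.90 ± 0.08 at 450 mOsm and -0.63 ± 0.08 at 290 mOsm. It also fell with salt in LPS-treated cells (-0.34 ± 0.08).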
